A study of Mus musculus with 6 samples.

Results

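The thrombospondins and Cd47 were followed in obstructed kidneys of mice that lost the tyrosine kinase gene Abl1 (c-Abl) in tubule epithelium. The set holds 6 of the 18849 genes in the deposited table, taken by symbol: Thbs1, Thbs2, Thbs3, Thbs4, Comp (also called thrombospondin 5) and the receptor gene Cd47. Their Entrez identifiers in the table are 21825, 21826, 21827, 21828, 12845 and 16423, and they lie on mouse chromosomes 2, 17, 3, 13, 8 and 16, in the same order. The knockout group has 3 libraries from male C57BL/6 mice with floxed c-Abl alleles and the Ksp-Cre transgene, in which Cre is driven by the promoter of kidney-specific cadherin and acts in tubule epithelium. The floxed group has 3 libraries from mice that carry the floxed alleles without Cre according to the design text, although their genotype label reads WT. The genotype label of the knockouts reads c-Abl knockdown. Mice of both groups were 8 weeks old and had a ureter tied off for 14 days (unilateral ureteral obstruction, UUO), a model in which tubules shrink and the kidney fills with scar matrix. Whole kidney was sequenced, so other kidney cells of the knockouts keep Abl1, and fewer cells of a type cannot be told apart from less RNA per cell. Nothing in the labels ties each library to a mouse of its own, so errors and p-values measure the spread between these libraries.

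Thrombospondins are large secreted glycoproteins that sit in the matrix without building it, and are therefore called matricellular. Thbs1 and Thbs2 form trimers and carry type 1 repeats, which hold binding sites for the receptor CD36, and Thbs1 can also release active TGF-beta from its latent complex. Thbs3, Thbs4 and Comp form pentamers and lack those repeats. Cd47 is a membrane protein of most cells that binds the C-terminal part of thrombospondin 1 and, through SIRP-alpha on macrophages, holds back phagocytosis. In injured kidney, thrombospondin 1 is known as a product of several sources, among them stromal, vascular and immune cells and platelets. Whole-kidney values do not show which cells, tubule epithelium included, made it here.

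Values are FPKM, fragments scaled by gene length and by the mapped fragments of the library, so levels can be compared between genes of 1 library. The spacing of low values gave an estimated 15700000 to 17450000 fragments per library. The targeted gene, Abl1, stood at 10.46, 14.45 and 12.91 FPKM in knockout replicates 1, 2 and 3, against 18.16, 15.93 and 17.33 FPKM in floxed replicates 1, 2 and 3, a mean 26.4% lower without overlap (exact two-sided permutation p = 0.1, the smallest that 3 against 3 libraries allow). Knockout replicate 3 stood apart from its group. A principal component analysis put 61.8% of the variance on its first axis, where knockout replicates 1, 2 and 3 lay at 54.1, 37.4 and -7.48, and the floxed libraries between -29.0 and -26.2. Values of the members are therefore given per library, and without that library where they rest on it.

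The members were chosen by their differences between knockout and floxed libraries, so those differences are given as a description without p-values. By limma across 13390 genes, with Benjamini-Hochberg adjustment at 0.05, 0.0672% of genes passed the threshold, 0.0299% as higher and 0.0373% as lower. FPKM of at least 1 in at least 3 libraries was required, which 4 of the 6 members met and Thbs4 and Comp did not. Of those 4, 1 passed, Thbs2. Because the members were chosen by this contrast, nothing is read from that count or from their passes in other fits. The groups did not overlap, with knockout lower, for 3 of the 4 (Thbs1, Thbs2 and Thbs3), where 31.7% of all genes tested had groups apart, 21.7% with knockout lower. Log2 fold changes are knockout minus floxed of log2(FPKM + 1), so the added 1 makes changes of low genes look smaller.

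Promoter sequences are shown for the 3 thrombospondins that the RefSeq promoter table holds, because these relatives differ in level and in their values across the knockout libraries. Each line gives the 250 bases before the annotated start, 5′ to 3′ on the strand of the gene, in build GRCm38.p6, while the expression table was made on mm9. Capitals mark matches, on either strand, to any of 9 motifs: CCAAT, the GC box GGGCGG, the TATA box TATAAA, the SMAD box GTCTAGAC, its core GTCTG, the AP-1 site TGANTCA, the TEAD site GGAATG, the TCF/LEF core CTTTGA and the CArG box. The TCF/LEF core was included because the title of the series names Wnt and beta-catenin.
Thbs2 promoter (GRCm38.p6, chr17:14694263-14694512, reverse strand): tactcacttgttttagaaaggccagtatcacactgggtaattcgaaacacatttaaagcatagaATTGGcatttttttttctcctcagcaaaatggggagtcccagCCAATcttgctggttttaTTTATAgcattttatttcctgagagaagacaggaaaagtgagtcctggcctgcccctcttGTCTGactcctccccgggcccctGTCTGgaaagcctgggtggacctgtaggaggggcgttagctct
Thbs3 promoter (GRCm38.p6, chr3:89214930-89215179, forward strand): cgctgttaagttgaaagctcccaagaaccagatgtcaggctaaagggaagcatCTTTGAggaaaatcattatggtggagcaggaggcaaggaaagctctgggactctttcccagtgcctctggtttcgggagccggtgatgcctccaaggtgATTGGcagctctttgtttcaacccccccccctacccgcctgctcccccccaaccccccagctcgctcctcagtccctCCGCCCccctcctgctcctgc
Thbs4 promoter (GRCm38.p6, chr13:92794819-92795068, reverse strand): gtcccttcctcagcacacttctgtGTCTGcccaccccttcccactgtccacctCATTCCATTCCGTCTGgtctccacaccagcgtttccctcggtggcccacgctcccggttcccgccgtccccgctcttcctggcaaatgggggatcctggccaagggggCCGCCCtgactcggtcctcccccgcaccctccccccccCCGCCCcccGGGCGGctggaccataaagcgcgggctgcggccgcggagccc
In the Thbs2 window the core GTCTG began at -66 and -43, CCAAT at -186 (reverse strand) and -144, and TATAAA at -126 (reverse strand), counted back from the start. The Thbs3 window held CTTTGA at -197, CCAAT at -98 (reverse strand) and a GC box at -21 (reverse strand). In the Thbs4 window lay the core GTCTG at -226 and -186, reverse-strand TEAD sites at -197 and -192 that overlap each other by 1 base and end where the second core begins, and GC boxes at -89 and -51 (reverse strand) and -42. Among 32851 promoter windows of the same length, 42.2% held GTCTG, 33.8% CCAAT, 32.7% GGGCGG, 13.8% CTTTGA, 12.6% GGAATG and 12.4% TATAAA. The remaining motifs had no match in these 3 windows and stand in 0.167% (SMAD box), 6.75% (AP-1) and 1.47% (CArG box) of all windows. A match describes the letters and does not show that a factor binds there.

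Thbs2, a collagen-associated thrombospondin that helps clear the metalloproteinase Mmp2 from the matrix, fell in all 3 knockout libraries. Its level was 4.43, 2.6 and 4.5 FPKM in knockout replicates 1, 2 and 3, against 15.16, 20.23 and 18.85 FPKM in floxed replicates 1, 2 and 3. Every knockout value lay below every floxed value, and replicate 3, which stood apart over the whole table, read like replicate 1. The mean was 3.84 ± 1.08 FPKM in knockout and 18.1 ± 2.62 FPKM in floxed kidneys (SD, n = 3 each), 4.70-fold lower, with a log2 fold change of -1.995 (SE 0.207). By size that change ranked 18 from the lowest among the 13390 genes tested. At the estimated depth these values stand for about 246 to 2075 fragments. The log2 fold change was -2.10 without knockout replicate 3. Its call at the threshold held in 3 of 16 alternative fits and was lost in 13 (with TPM scaling it held, and 0.0747% of all genes passed), while the direction was lower in every one of the 16.

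Thbs1, an activator of latent TGF-beta and a ligand of CD47 and CD36, was the most abundant thrombospondin in every library. It stood at 26.22, 21.41 and 23.11 FPKM in knockout replicates 1, 2 and 3, and at 37.21, 84.58 and 80 FPKM in floxed replicates 1, 2 and 3. The knockout libraries lay close together and below all floxed ones, while floxed replicate 1 stood far below the other two floxed libraries. The mean was 23.6 ± 2.44 FPKM in knockout and 67.3 ± 26.1 FPKM in floxed kidneys (SD, n = 3 each), 2.85-fold lower, with a log2 fold change of -1.39 (SE 0.306) that did not pass the threshold. Leaving out floxed replicate 1, the lowest floxed library, gave a log2 fold change of -1.76. Thbs1 then passed (0.0971% of all genes did), which is no test of a gene chosen by this contrast. Leaving out floxed replicate 2 gave -1.18.

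Thbs3, a pentameric thrombospondin best known from skeletal tissue, split the knockout group. Its level was 2.9, 2.88 and 6.78 FPKM in knockout replicates 1, 2 and 3, against 8.09, 6.95 and 6.88 FPKM in floxed replicates 1, 2 and 3. Replicates 1 and 2 lay well below the floxed libraries, and replicate 3 lay just below the lowest of them. Means were 4.19 ± 2.25 FPKM in knockout and 7.31 ± 0.679 FPKM in floxed kidneys (SD, n = 3 each). The log2 fold change of -0.76 (SE 0.282) was -1.09 without knockout replicate 3.

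Thbs4, which in mice is found in tendon, muscle and nerve, and Comp, a cartilage and tendon protein, were close to the detection limit. Thbs4 had 0.21, 0.09 and 0.94 FPKM in knockout replicates 1, 2 and 3, and 1.22, 0.33 and 0.45 FPKM in floxed replicates 1, 2 and 3. Comp read 1.01, 0.29 and 0.07 FPKM in the knockout libraries and 0.37, 0.51 and 0.28 FPKM in the floxed libraries, in the same order of replicates. For both genes the groups overlapped, and the highest and lowest Comp values both came from knockout libraries. These levels stand for about 5 to 62 fragments of Thbs4 and 3 to 39 of Comp. For Comp in knockout replicate 3, 3 fragments have an exact 95% Poisson interval of 0.619 to 8.77, and in knockout replicate 1, 39 fragments have one of 27.7 to 53.3. The intervals cover counting error only. Without a filter, the log2 fold changes were -0.25 (SE 0.278) for Thbs4 and 0.02 (SE 0.226) for Comp, and that of Comp turned below 0 in 6 of 16 alternative fits. A difference between the groups was not detectable for either gene at this depth and spread.

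Cd47, the receptor in the set, diverged within the knockout group. Its level was 29.48, 33.07 and 74.08 FPKM in knockout replicates 1, 2 and 3, against 48.23, 45.33 and 40.99 FPKM in floxed replicates 1, 2 and 3. Knockout replicates 1 and 2 lay below every floxed library and replicate 3 above every one. The knockout mean, 45.5 ± 24.8 FPKM, therefore describes no single library, while the floxed mean was 44.9 ± 3.64 FPKM (SD, n = 3 each). The log2 fold change was -0.10 (SE 0.329), and -0.51 without knockout replicate 3. It was 0.14 without knockout replicate 1, 0.06 without knockout replicate 2 and 0.06 with median-ratio scaling.

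**Figure D1:**
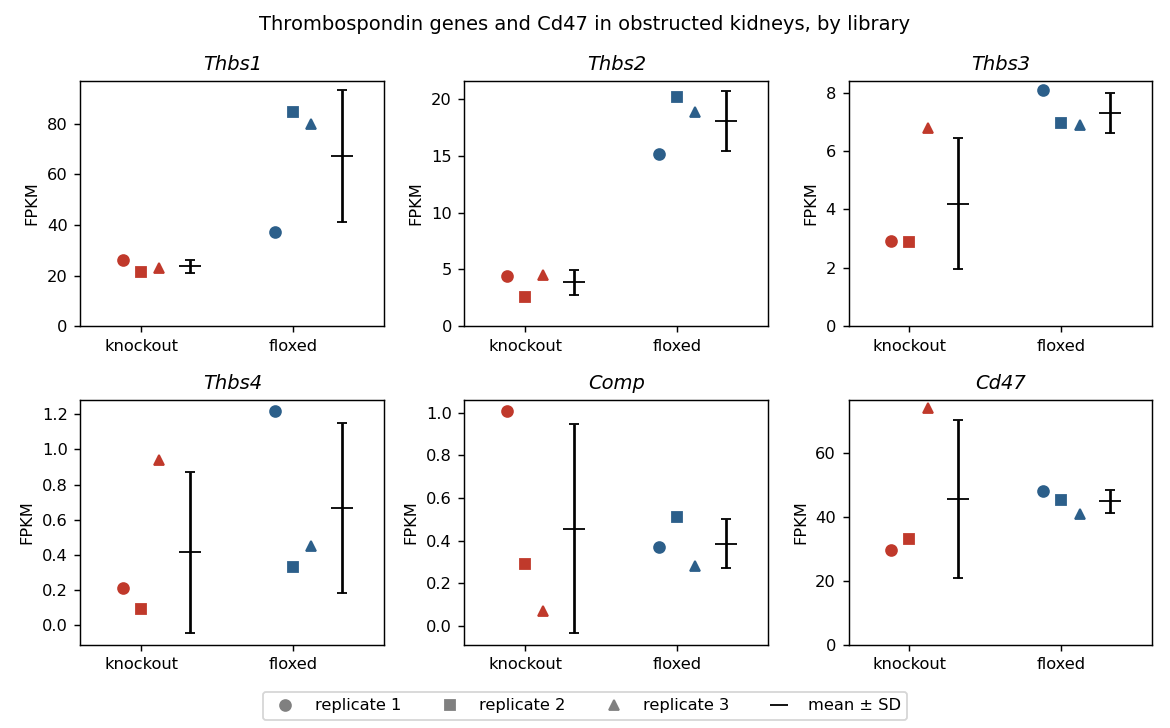
FPKM (vertical axes, from 0 or just below) of the 6 genes in each library, knockout at the left and floxed at the right of each panel, with symbols for replicates 1 to 3 and bars for the mean ± SD. The groups stand apart for Thbs1 and Thbs2, knockout replicate 3 joins the floxed values for Thbs3, and it exceeds them for Cd47 at 74.08 FPKM.

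The thrombospondin messages together were scarcer in the knockout libraries, and their make-up differed. Summed over Thbs1, Thbs2, Thbs3, Thbs4 and Comp, the level was 34.8, 27.3 and 35.4 FPKM in knockout replicates 1, 2 and 3, and 62.05, 112.6 and 106.5 FPKM in floxed replicates 1, 2 and 3. The sums did not overlap. Thbs1 made up 75.4%, 78.5% and 65.3% of the sum in the knockout libraries and 60.0%, 75.1% and 75.1% in the floxed libraries, so its shares overlapped. Thbs2 made up 12.7%, 9.53% and 12.7% in the knockout libraries and 24.4%, 18.0% and 17.7% in the floxed libraries, which did not overlap. Thbs3 held 8.34%, 10.6% and 19.2% in the knockout libraries and 13%, 6.17% and 6.46% in the floxed libraries. The order Thbs1, Thbs2, Thbs3 held in all 3 floxed libraries and in knockout replicate 1, whereas Thbs3 exceeded Thbs2 in knockout replicates 2 and 3. In the knockout group the means of Thbs2 and Thbs3, 3.84 and 4.19 FPKM, differed by less than their spread. Thbs4 and Comp each held at most 2.9% in any library and their order changed from library to library.

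**Figure D2:**
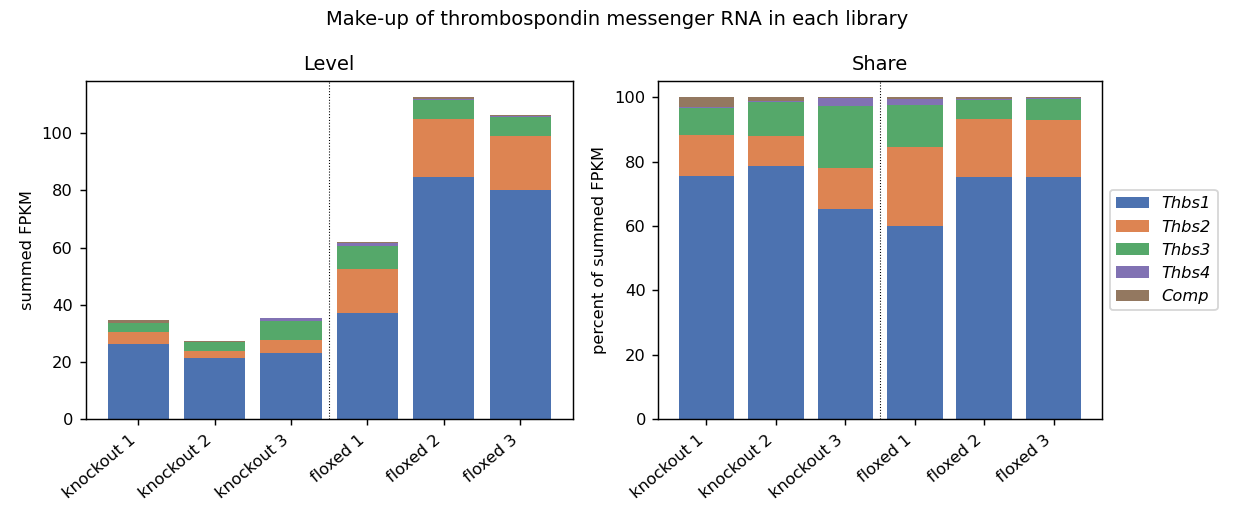
Summed FPKM of the 5 thrombospondins (left) and the share of each gene in that sum in percent (right), for the 3 knockout and then the 3 floxed libraries. The knockout sums lie between 27.3 and 35.4 FPKM, below the lowest floxed sum of 62.05 FPKM, and the Thbs2 segment of the right panel is 9.53% to 12.7% of the bar in knockout libraries and 17.7% to 24.4% in floxed ones.

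Set against the other genes of the same library, Thbs1 and Thbs2 kept low places in knockout replicate 3. The log2 difference of each library from the floxed mean was -1.80, -2.40 and -1.79 for Thbs2 in knockout replicates 1, 2 and 3. Of all genes tested, 1.18%, 0.172% and 0.157% had a lower difference in those libraries. Such places describe members that were chosen by this contrast and do not test them. For Thbs1 the differences were -1.24, -1.52 and -1.41, with 5.53%, 1.5% and 0.336% of genes below. Thbs3 differed by -1.09, -1.10 and -0.09, and 40.5% of genes lay below it in replicate 3. For Cd47 the differences were -0.59, -0.43 and 0.71, and in replicate 3 97.8% of genes lay below it. The middle 90% of all genes spanned -1.27 to 0.99 in knockout replicate 1, -1.05 to 0.87 in replicate 2 and -0.60 to 0.50 in replicate 3, a narrower range in the last.

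**Figure D3:**
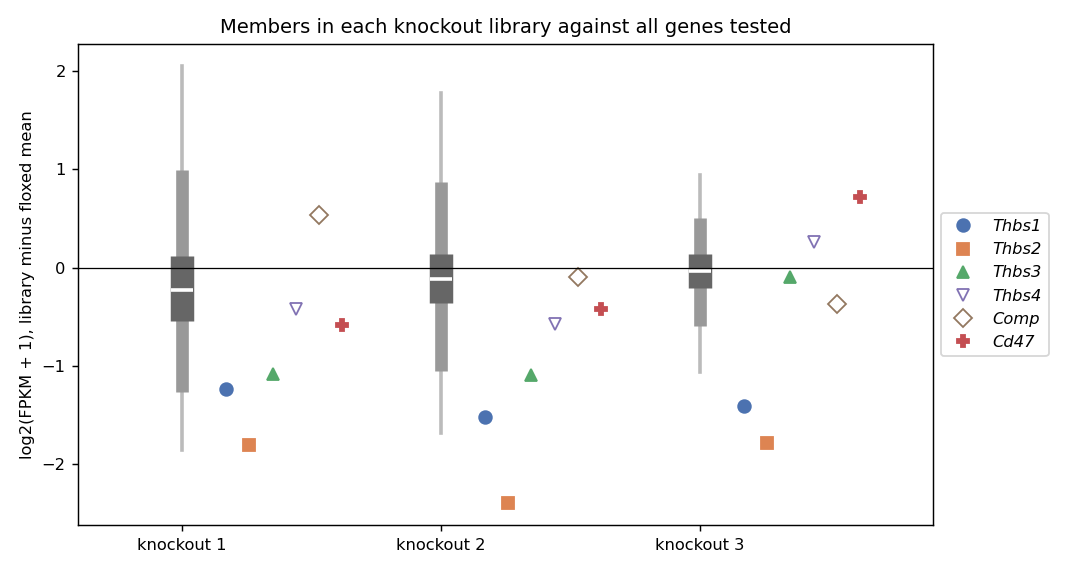
Log2(FPKM + 1) of each knockout library minus the floxed mean (vertical axis) for the 6 genes (symbols, open for the low genes Thbs4 and Comp), beside all 13390 genes tested (thin grey line for the 1st to 99th percentile, wider bars for the 5th to 95th and 25th to 75th, white dash for the median). Thbs2 lies below the 5th percentile in each library, while Thbs3 lies at -0.09 and Cd47 at 0.71 in knockout replicate 3.

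Markers of the cell types that could carry these messages differed between the groups as well, few of them past the threshold. In knockout replicate 3 the fibroblast, macrophage and smooth muscle sums stood at 53.1%, 59.0% and 73.6% of the floxed mean. Thbs2 and Thbs1, at 24.9% and 34.4%, lay further below the floxed level. On that scale the fibroblast sum lay below Thbs1 in knockout replicates 1 and 2, and below Thbs2 in replicate 1. A few single markers, picked after their values were seen, stayed nearly as low as Thbs2 or Thbs1 in replicate 3. Dpt, Tcf21 and Ms4a7 read 3.25, 21.66 and 11.93 FPKM there, against floxed means of 12.65, 82.24 and 34.75 FPKM. Dpt and Ms4a7 are themselves past the threshold. The other markers of these lists, Col1a1 among them, lay nearer to their floxed means in that library. All 11 fibroblast markers had lower knockout means (1 passed the limma threshold), and their summed level ranged from 127 to 379 FPKM in knockout and from 628 to 829 FPKM in floxed libraries, led by Col1a2 and Col3a1. In knockout replicate 3 Col1a1, Col1a2 and Col3a1 read 73.62, 93.09 and 100.57 FPKM of the 379 FPKM, so the sum mostly follows collagen genes and not markers such as Dpt and Tcf21. Thbs2 came to 2.81%, 2.04% and 1.19% of that sum in knockout replicates 1, 2 and 3, against 2.42%, 2.95% and 2.27% in floxed replicates 1, 2 and 3. Relative to this collagen-led sum, knockout replicate 1 lay within the floxed range and replicates 2 and 3 below it. Thbs1 came to 16.7%, 16.8% and 6.10% of the sum in knockout libraries and 5.93%, 12.3% and 9.65% in floxed libraries, and Thbs3 to 1.84%, 2.26% and 1.79% against 1.29%, 1.01% and 0.830%. Relative to the same sum, Thbs3 was thus above every floxed library in all 3 knockout libraries. All 9 smooth muscle and pericyte markers had lower knockout means (66.9 to 172 FPKM summed in knockout, 179 to 277 FPKM in floxed), as had all 9 macrophage markers, led by Lyz2 and C1qa (695 to 1331 FPKM in knockout, 1754 to 2576 FPKM in floxed, 1 passed as lower). All 9 endothelial markers had lower knockout means as well, but their sums overlapped (106 to 137 FPKM in knockout, 129 to 237 FPKM in floxed). All 11 proximal tubule markers had higher knockout means, which rested mainly on replicates 1 and 2. Their sum was 3876, 4053 and 985 FPKM in knockout replicates 1, 2 and 3, against 568 to 914 FPKM in floxed libraries. All 7 markers of the thick limb and distal tubule had higher knockout means too (1606, 1830 and 1066 FPKM summed in knockout replicates 1, 2 and 3, 774 to 963 FPKM in floxed). The part of these shifts in the thrombospondin values was not tested.

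Platelets store thrombospondin 1, so their genes were examined. Of 8 platelet and megakaryocyte markers, 5 (Gp1ba, Gp1bb, Gp9, Gp6 and Tubb1) were below 1 FPKM in every library. The sum was 11.7, 6.68 and 67.2 FPKM in knockout replicates 1, 2 and 3 and 28.6 to 34.3 FPKM in floxed libraries, and rested on the chemokine genes Pf4 and Ppbp. Ppbp read 0.11, 0.84 and 44.93 FPKM in the knockout libraries and 11.21, 3.15 and 10.4 FPKM in the floxed libraries. Of the 8 markers, 4 had lower and 4 higher knockout means. Itga2b read 1.58, 1.99 and 1.6 FPKM in the knockout libraries and 1.86, 1.1 and 1.03 FPKM in the floxed libraries. The library with the highest sum, knockout replicate 3, had the highest Cd47, and its Thbs1 lay between those of the other knockout libraries. A link of platelets to these values was not tested. Of 9 tendon and cartilage markers, which would go with Comp and Thbs4, 7 were below 1 FPKM in every library (Tnmd, Chad, Acan, Col2a1, Matn1, Matn3 and Mkx), and the sum was 11.4 to 20.2 FPKM in knockout and 21.7 to 23.5 FPKM in floxed libraries, led by Scx and Fmod. Skeletal muscle markers summed to 1.15 to 1.79 FPKM in knockout and 2.04 to 2.33 FPKM in floxed libraries, with 5 of the 6 found below 1 FPKM everywhere.

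**Figure D4:**
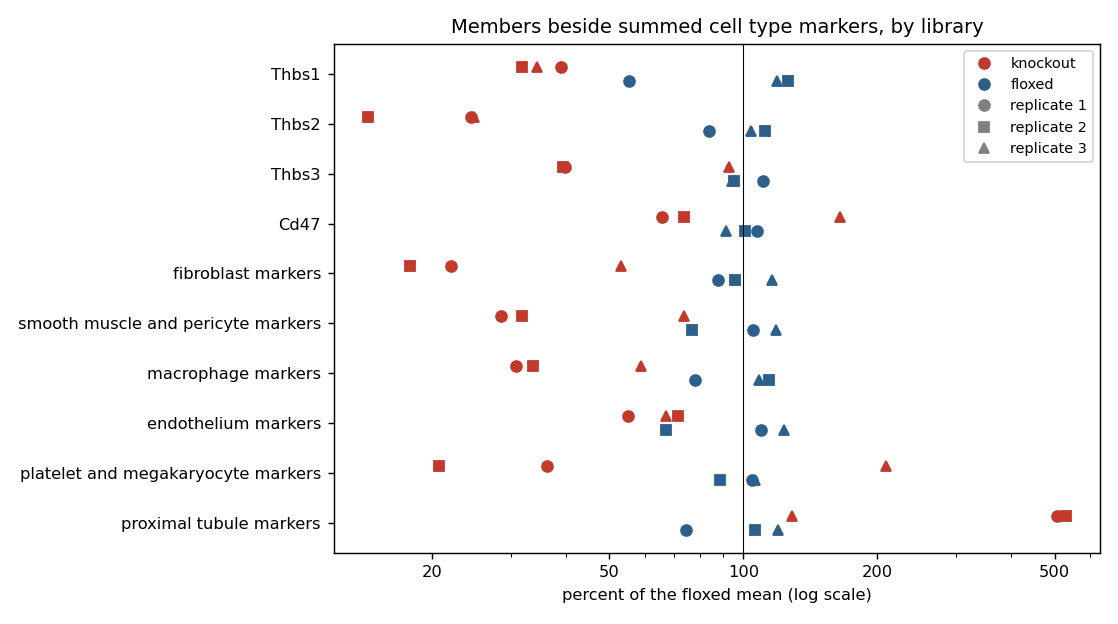
Level of Thbs1, Thbs2, Thbs3 and Cd47 and summed level of 6 marker lists in each library, in percent of the floxed mean (horizontal log axis), with knockout above floxed in each row and symbols for replicates 1 to 3. In knockout replicate 3 Thbs2 stands at 24.9% and Thbs1 at 34.4%, while the fibroblast sum stands at 53.1%, Thbs3 at 92.8% and Cd47 at 165%. In knockout replicates 1 and 2 the fibroblast sum stands below Thbs1.

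Genes around the thrombospondins were counted in 7 lists by role. Means in the lists are given ± SD over 3 libraries. Across all genes tested the median log2 fold change was -0.12, and 65.4% of them lay below 0. List medians in knockout replicate 3 alone, between -0.57 and -0.11, were nearer to 0 than in replicate 1 (-1.77 to -0.57) or 2 (-1.87 to -0.60), and without that library the medians over the group ran between -1.78 and -0.70. With 0 of the genes of any list past the limma threshold in either direction, counts at an unadjusted p under 0.05 are given, which 16.3% of all genes tested met as lower and 8.38% as higher. Of 21 other receptors for thrombospondins, 18 lay below 0, with a median of -0.54, and 10 were lower and 0 higher at an unadjusted limma p under 0.05. The calcium channel subunit Cacna2d1, a neuronal thrombospondin receptor, averaged 1.51 ± 0.478 FPKM in knockout and 5.16 ± 0.329 FPKM in floxed kidneys (limma adjusted p = 0.0547). The integrin chains Itga9 (3.83 ± 1.15 and 9.26 ± 0.893 FPKM in knockout and floxed) and Itgb2 (13.6 ± 4.92 and 26.9 ± 3.94 FPKM) and the endocytic receptor Lrp1, which takes up thrombospondin 2 with its cargo (6.32 ± 3.47 and 14.7 ± 2.01 FPKM), followed in order of p (limma adjusted p = 0.0547, 0.0876 and 0.0952). Cd36 itself stood at 81.61, 24.48 and 33.67 FPKM in knockout replicates 1, 2 and 3 and 16.02, 38.71 and 48.67 FPKM in floxed replicates 1, 2 and 3, with wide overlap. It was chosen after its values were seen, as the classical receptor.

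Thrombospondin 1 is known to curb nitric oxide signalling through Cd47. Of 13 genes for CD47 partners and nitric oxide signalling, 11 lay below 0 with a median of -0.54, and 7 were lower and 1 higher at an unadjusted limma p under 0.05. Both subunits of soluble guanylate cyclase, the nitric oxide receptor, were among them. Gucy1a1 averaged 6.06 ± 2.66 FPKM in knockout and 21.6 ± 2.62 FPKM in floxed kidneys, and Gucy1b1 3.15 ± 1.16 and 8.42 ± 0.991 FPKM (limma adjusted p = 0.0547 each). Sirpa, which encodes the CD47 counter-receptor of macrophages, stood at 42.7, 35.53 and 44.17 FPKM in knockout replicates 1, 2 and 3, against 62.78, 67.86 and 60.77 FPKM in floxed replicates 1, 2 and 3 (limma adjusted p = 0.0635). Its knockout values lay below all floxed ones, in replicate 3 as well, unlike those of Cd47. The mitophagy gene Bnip3, whose protein was described as a CD47 partner, was the 1 gene higher at an unadjusted limma p under 0.05. It stood at 100 ± 20.2 FPKM in knockout and 53.9 ± 1.55 FPKM in floxed kidneys (limma adjusted p = 0.0635).

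Among 14 TGF-beta ligands, latency proteins and receptors, 12 lay below 0, with a median of -0.72, and 7 were lower and 0 higher at an unadjusted limma p under 0.05. The latent TGF-beta binding proteins Ltbp3 (18.4 ± 1.82 FPKM in knockout, 32.7 ± 3.20 FPKM in floxed) and Ltbp2 (5.54 ± 2.41 and 16.6 ± 3.22 FPKM), the co-receptor Eng (19.97 ± 2.05 and 36.3 ± 6.12 FPKM) and the ligand Tgfb3 (1.81 ± 0.875 and 6.12 ± 1.78 FPKM) had limma adjusted p of 0.0547, 0.0612, 0.0633 and 0.0687. All 13 TGF-beta feedback and target genes lay below 0, with a median of -1.14, and 8 were lower and 0 higher at an unadjusted limma p under 0.05. The feedback gene Pmepa1 averaged 20.8 ± 5.72 FPKM in knockout and 46.5 ± 5.46 FPKM in floxed kidneys (limma adjusted p = 0.0547). The collagen Col1a2 stood at 36.54, 28.19 and 93.09 FPKM in knockout replicates 1, 2 and 3, against 152.91, 193.16 and 202.35 FPKM in floxed replicates 1, 2 and 3 (limma adjusted p = 0.0687). Its knockout mean was 52.6 FPKM, and 32.4 FPKM without replicate 3. Ltbp2 stands in both lists.

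All 19 tested genes for other matricellular proteins lay below 0, with a median of -1.09 (-0.71 without the filter), and 12 were lower and 0 higher at an unadjusted limma p under 0.05. Smoc2, a calcium-binding matricellular gene and the next protein-coding gene beside Thbs2 on chromosome 17, averaged 11.97 ± 4.99 FPKM in knockout and 46.3 ± 18.0 FPKM in floxed kidneys. Ccn4 (1.67 ± 0.761 and 4.53 ± 0.311 FPKM in knockout and floxed), the collagen-binding Sparc (211 ± 98.8 and 520 ± 48.7 FPKM) and Ccn1 (53.5 ± 16.7 and 212 ± 101 FPKM) followed, and the 4 had limma adjusted p between 0.0651 and 0.0797. Of 26 tested genes for other proteins with thrombospondin type 1 repeats, 23 lay below 0 with a median of -0.66 (-0.27 without the filter), and 14 were lower and 0 higher at an unadjusted limma p under 0.05. Their lead was the complement regulator properdin (Cfp, 12.8 ± 2.97 FPKM in knockout, 34.4 ± 3.45 FPKM in floxed, limma adjusted p = 0.0547). It was followed by the protease Adamts7, which cuts Comp (1.20 ± 0.534 and 3.75 ± 0.574 FPKM in knockout and floxed), by Spon1 (8.13 ± 3.86 and 28.0 ± 8.57 FPKM) and by the netrin receptor Unc5b (5.78 ± 0.903 and 9.54 ± 0.413 FPKM).

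Of 28 matrix and protease partners of the thrombospondins, 19 met the filter. With the filter they had the lowest list median, -1.38, with 18 of the 19 genes below 0. At an unadjusted limma p under 0.05, 17 were lower and 0 higher. Without the filter the median of this list was -1.13, and that of the TGF-beta feedback and target genes was slightly lower, at -1.14. Dcn, the small proteoglycan decorin, stood at 26.34, 25.66 and 40.33 FPKM in knockout replicates 1, 2 and 3, against 78.86, 80.98 and 80.24 FPKM in floxed replicates 1, 2 and 3 (limma adjusted p = 0.0547), and the collagen Col12a1 at 3.99, 1.67 and 7.87 FPKM in the knockout libraries, against 14.02, 26.23 and 21.02 FPKM in the floxed libraries (limma adjusted p = 0.0687). Its knockout mean was 4.51 FPKM, and 2.83 FPKM without replicate 3. Adamts7 and Col1a2, given above, completed the 4 of smallest p. The lists share genes with each other and with the fibroblast markers, so they are not separate evidence. Without knockout replicate 3, 24.4% of all genes tested passed the threshold, and so did all 4 members that met the filter, each lower, and between 9 and 16 genes of each list.

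**Figure D5:**
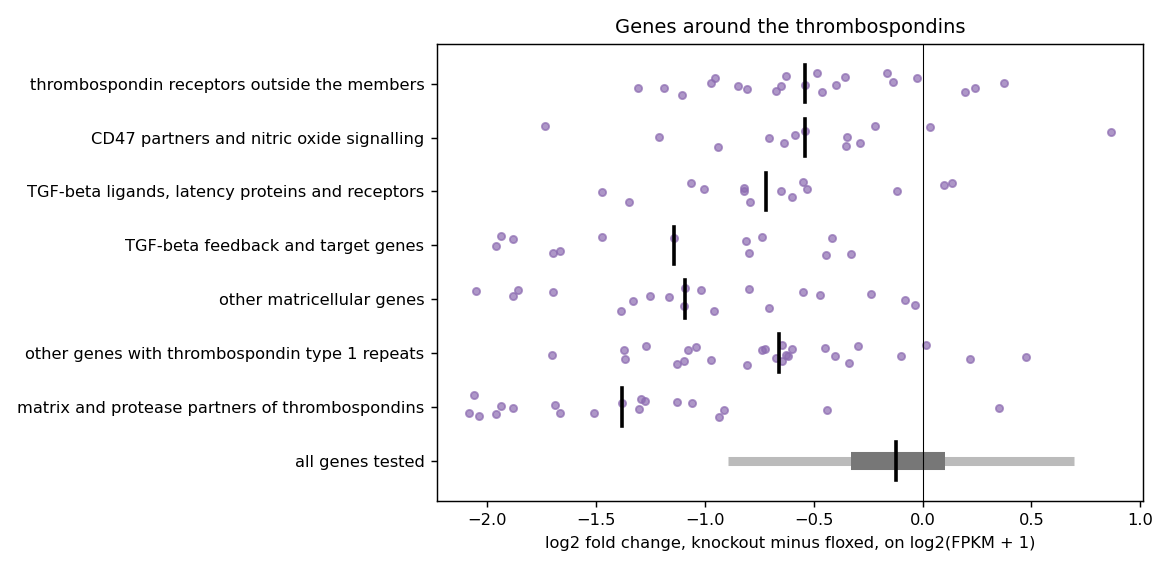
Log2 fold change, knockout minus floxed on log2(FPKM + 1), of each tested gene (dots) in the 7 lists, with the list median as a black bar. At the bottom all 13390 genes tested are shown by their 5th to 95th and 25th to 75th percentiles (grey bars) and median of -0.12. List medians run between -1.38 for matrix and protease partners and -0.54 for other receptors.

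Neighbouring genes on the chromosome, taken by position in the RefSeq table, differed in how they compared with the members. Mtx1, the metaxin gene next to Thbs3, stood at 47.95, 47.17 and 39.04 FPKM in knockout replicates 1, 2 and 3, against 34.47, 36.1 and 33.11 FPKM in floxed replicates 1, 2 and 3. It lay higher in every knockout library, opposite to Thbs3, with a limma adjusted p of 0.143. Muc1, on the other side of Thbs3, had overlapping groups. Thbs2 lies between Smoc2, given above, and Wdr27, which read 1.01, 0.86 and 0.92 FPKM in the knockout libraries against 0.66, 0.62 and 0.35 FPKM in the floxed libraries. No protein-coding neighbour overlapped a member in that table, but strand use in counting is not given in the sources used here, and Thbs3, Comp and Cd47 overlap non-coding genes whose reads cannot be told apart from theirs.

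Over the 6 libraries, Thbs1 and Thbs2 had a Pearson correlation of 0.922 on log2(FPKM + 1), Thbs2 and Thbs3 one of 0.778 and Thbs3 and Cd47 one of 0.742. Thbs1 and Cd47 had one of 0.0213. These describe 6 libraries of 2 groups and share the same depth and scaling. The genes most like Thbs2, among 13289 candidates, were the G protein subunit Gng11 (r = 0.997), the cilium factor Foxj1 (r = 0.994) and the T-box factor Tbx6 (r = 0.992). Pdzrn3 (r = 0.993), LOC115488503 (r = 0.990) and the semaphorin Sema3d (r = 0.990) were most like Thbs1, and both Thbs1 and Sema3d were lower in floxed replicate 1 than in the other floxed libraries. Invs (r = 0.997) and Rab13 (r = 0.996) were most like Thbs3, and Ncstn (r = 0.995), Plac8 (r = 0.993) and Mad2l2 (r = 0.991) most like Cd47. With so few libraries many genes reach high values. A correlation over 0.9 was found for 180 genes with Thbs1, 583 with Thbs2, 1508 with Thbs3 and 293 with Cd47.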

How the data were processed

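Messenger RNA of whole kidney was measured in 6 libraries, and the sample titles gave groups and replicate numbers. The deposited values are FPKM, named so in the file headers, with 2 decimals. The authors used genome build mm9, per the submitters' processing notes. The sources used here give no aligner, counting tool, annotation, strand use or filter. RNA was extracted with TRIzol and libraries followed an Illumina protocol, per the labels' protocols. FPKM depends on all mapped fragments of a library, so abundant genes can move the rest. The table has 18849 genes, of which 18792 were found by Entrez identifier in a RefSeq table of GRCm38.p6, used for names and neighbours, and 26 symbols turned into dates were restored. No library pair was identical.

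The 13390 genes that reached 1 FPKM in 3 or more libraries entered limma 3.58.1 (R 4.3.3) as log2(FPKM + 1). The model had the group alone and a trended prior variance, tests were two-sided, and p-values were adjusted by Benjamini-Hochberg over all of these genes. The fit was tested on simulated data. Abl1 had an exact permutation test. Fragments per library were estimated from genes with 1 annotated coding transcript of 300 to 1000 nucleotides, by the depth at which low values came nearest to whole fragments. At that depth 64.9% to 71.3% of them lay within 0.2 of a whole number, against a median of 31.4% to 35.6% over all depths tried. Fragments per member use its longest coding transcript in GENCODE M21 and are approximate. The list of members and all gene lists were chosen with earlier results of these data known. All members were named. So were, in each list, genes past the threshold and then those of smallest p up to 4, and the 3 genes most like each member that met the filter (mean FPKM of at least 1, other members left out). Of the genes in the lists, Rspo2 and Myh4 were not found. Of the genes this rule names, 2 are not reported here. A planned comparison of protein sequences was not run. Alternatives were pseudocounts of 0.1 and 0.01, a filter at mean FPKM 5, none at all, TPM, quantile and median-ratio scaling, limma without trend or with array weights, a replicate block, and each library left out. Python 3.11.15 with numpy 2.4.6, pandas 2.3.3, scipy 1.17.1 and matplotlib 3.10.9 was used for the rest.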

Additional observations from a re-analysis of the deposited data

How the results depend on the processing

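The log2 fold changes of Thbs1, Thbs2, Thbs3 and Thbs4 stayed below 0 under all 16 alternatives, with Thbs2 between -2.41 and -1.79, Thbs1 between -1.76 and -1.18, Thbs3 between -1.09 and -0.55 and Thbs4 between -1.07 and -0.02. The low end for Thbs4 came with a pseudocount of 0.01. Thbs2 passed the threshold with TPM scaling (as did 0.0747% of genes), with array weights (10.9%) and without knockout replicate 3 (24.4%), and Thbs1 with array weights, without knockout replicate 3 and without floxed replicate 1. These passes describe the fits and do not test the members, which were chosen by this contrast.

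The sign of Comp turned with a pseudocount of 0.1 (-0.19) or 0.01 (-0.41), TPM scaling (-0.0388) and array weights (-0.0830), and with libraries left out it ran between -0.24 and 0.22. Cd47 turned to 0.0575 with median-ratio scaling and ran between -0.51 and 0.14 with libraries left out. Median-ratio scaling moved the median of all genes to 0.0012, by its construction.

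Of all genes tested, 9 passed (4 higher, 5 lower). With either other pseudocount, without a filter or with one at mean FPKM 5, with quantile or median-ratio scaling, and in limma without trend, 1 passed, which was higher, and 0 lower. With array weights 1456 passed (588 higher, 868 lower), and then 7 other receptors, 7 CD47 partners, 5 TGF-beta ligands and receptors, 8 feedback genes, 5 matricellular genes, 8 genes with type 1 repeats and 16 matrix partners. With libraries left out the count ran between 0 and 3271 (0 to 1208 higher, 0 to 2063 lower). It was 0 without floxed replicate 2 or 3 (where limma gave 2298 and 2146 genes an unadjusted p under 0.05) and 3271 without knockout replicate 3. In the lists it ran between 0 and 14 for receptors, 9 for CD47 partners, 10 for TGF-beta ligands and receptors, 12 for feedback genes, 15 for matricellular genes, 16 for type 1 repeat genes and 16 for matrix partners. List medians stayed below 0 under every alternative, at the nearest -0.27 for type 1 repeat genes without a filter. The cause was not tested.

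With the replicate number as a block, 2 genes passed, 2 higher and 0 lower, and Thbs2 did not. Deviations of same-numbered libraries correlated at -0.126, -0.0699 and 0.034 across genes, and those of differently numbered libraries between -0.122 and 0.135. No pairing by number was seen, but 3 libraries a group cannot exclude a shared origin. Precision is limited by 3 libraries a group, and for Thbs4 and Comp by few fragments.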
